A study of Mus musculus with 9 samples.

Results

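The transcripts described here encode the Hedgehog receptors and Gli factors of the embryonic mouse cortex: Ptch1, Smo, Gli1, Gli2, Gli3, Sufu, Hhip, Boc and Cdon. They were matched by gene symbol, a rule that sets no threshold on any measured value, and all 9 were found among the 22180 genes that have a row of their own on the array. Sufu had 2 such rows and the others 1 each, and for Sufu the row with the higher mean over all arrays was read. RNA came from the cortex of wild-type (WT) CD1 mouse embryos at embryonic days 12 to 13. It was measured in 3 groups of 3 biological replicates: total RNA of the lysate with no RIP antibody (input), RNA precipitated with normal rabbit IgG, the background of the method, and RNA precipitated with a rabbit antibody to Pumilio2 (Pum2), an RNA-binding protein that represses translation. The tissue is a mixture of cell types, and how many embryos made up a replicate is not stated in the labels. A difference between groups is therefore a difference in the share of RNA recovered from whole cortex. The cell type that a recovered transcript came from cannot be told in such bulk RNA. For the signal within a group, fewer cells of a type and less RNA per cell cannot be told apart either.

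Hedgehog ligands such as Shh bind the membrane receptor Ptch1, which in the absence of ligand holds the membrane protein Smo inactive. Bound Ptch1 releases Smo in the primary cilium, and Smo frees the Gli transcription factors from their inhibitor Sufu and from cutting into repressor forms. In the dorsal telencephalon, the Gli3 repressor is known to keep Shh-driven ventral programmes out of the cortex, while Gli1 and Gli2 act mainly as activators. The question asked of the arrays was whether transcripts of this pathway were recovered with Pum2 more or less than with IgG or in total RNA.

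Values are log2 signals on the Mouse Gene 2.0 ST array, so a difference of 1 is a doubling, and precision is limited by having 3 arrays in a group. Arrays of a group correlated across genes with Pearson r between 0.994 and 0.996 and arrays of different groups between 0.977 and 0.989. Genes are not independent replicates. The 7 dorsal cortex markers read here (Emx1, Emx2, Pax6, Sox2, Nes, Eomes and Tbr1) all lay above the median gene in input. Marker genes of other cell types were also measured. Their counts stand beside 19.4% of all genes called higher with Pum2 than with IgG and 21.6% called higher than in input. Of 5 meningeal markers, 3 were higher than in IgG and 5 higher than in input, and their mean signal over the list was 6.79 to 6.88 in input arrays, 7.0 to 7.18 in IgG arrays and 7.44 to 7.46 in Pum2 arrays. The corresponding ranges for 4 endothelial markers were 8.39 to 8.46, 8.29 to 8.73 and 8.99 to 9.12, with 2 of 4 higher than in IgG and 3 of 4 higher than in input. For 4 microglial markers they were 6.28 to 6.48, 6.09 to 6.41 and 6.55 to 6.56. Of these 4, 2 were higher than in IgG (Csf1r and C1qa) and 2 higher than in input (Csf1r and Cx3cr1). For 4 ventral telencephalon markers they were 5.53 to 5.63, 5.55 to 5.65 and 5.72 to 5.97, with 0 of 4 higher than in IgG and 1 of 4 higher than in input. Of the dorsal cortex markers themselves, 4 of 7 were higher than in IgG and 6 of 7 higher than in input, and their list means were 9.63 in every input array, 9.67 to 9.74 with IgG and 9.999 to 10.16 with Pum2. The 1 erythroid marker read, Hbb-y, was not higher than in IgG and was lower than in input (9.98 to 10.26 in input, 9.96 to 10.23 with IgG and 9.59 to 9.96 with Pum2). The part of these cell types in the results below was not tested.

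Most Hedgehog receptor and Gli transcripts were richer in the Pum2 precipitate, and Smo was poorer. Ptch1, Gli2, Gli3, Sufu and Boc rose against both IgG and input, beside 14.2% of all genes. Smo fell against both, Hhip rose against IgG alone and Cdon against input alone, and Gli1 passed the test against neither control. Against IgG, 6 of 9 were higher and 1 lower (limma adjusted p under 0.05), beside 19.4% higher and 11.4% lower among all genes tested. Against input the counts were again 6 and 1, beside 21.6% and 13.1%. With only the genes at or above the median level tested, 39.2% were higher and 21.0% lower against IgG, and 41.1% and 24.3% against input. Of the 7 Hedgehog genes at that level, 5 were higher and 1 lower against IgG, and 6 were higher and 1 lower against input. The median difference of the 9 genes was 0.47 against IgG and 0.52 against input, where the medians of all genes were 0.04 and 0.07. With the arrays centred on the brighter genes, the counts for the 9 were 5 and 1 against IgG and 6 and 1 against input, while the background against IgG became 13.9% higher and 15.8% lower. It was 15.7% and 13.6% with quantile normalization run again, and 17.0% and 15.5% against input with centring. The Pum2 arrays lay wholly above the IgG arrays for 6 of 9 and wholly below for 1, beside 25.9% and 15.4% of all genes. Against the input arrays the counts were 6 and 1, beside 28.5% and 16.8%. The comparisons with IgG and with input share the Pum2 arrays, so they are not independent of each other.

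**Figure D1:**
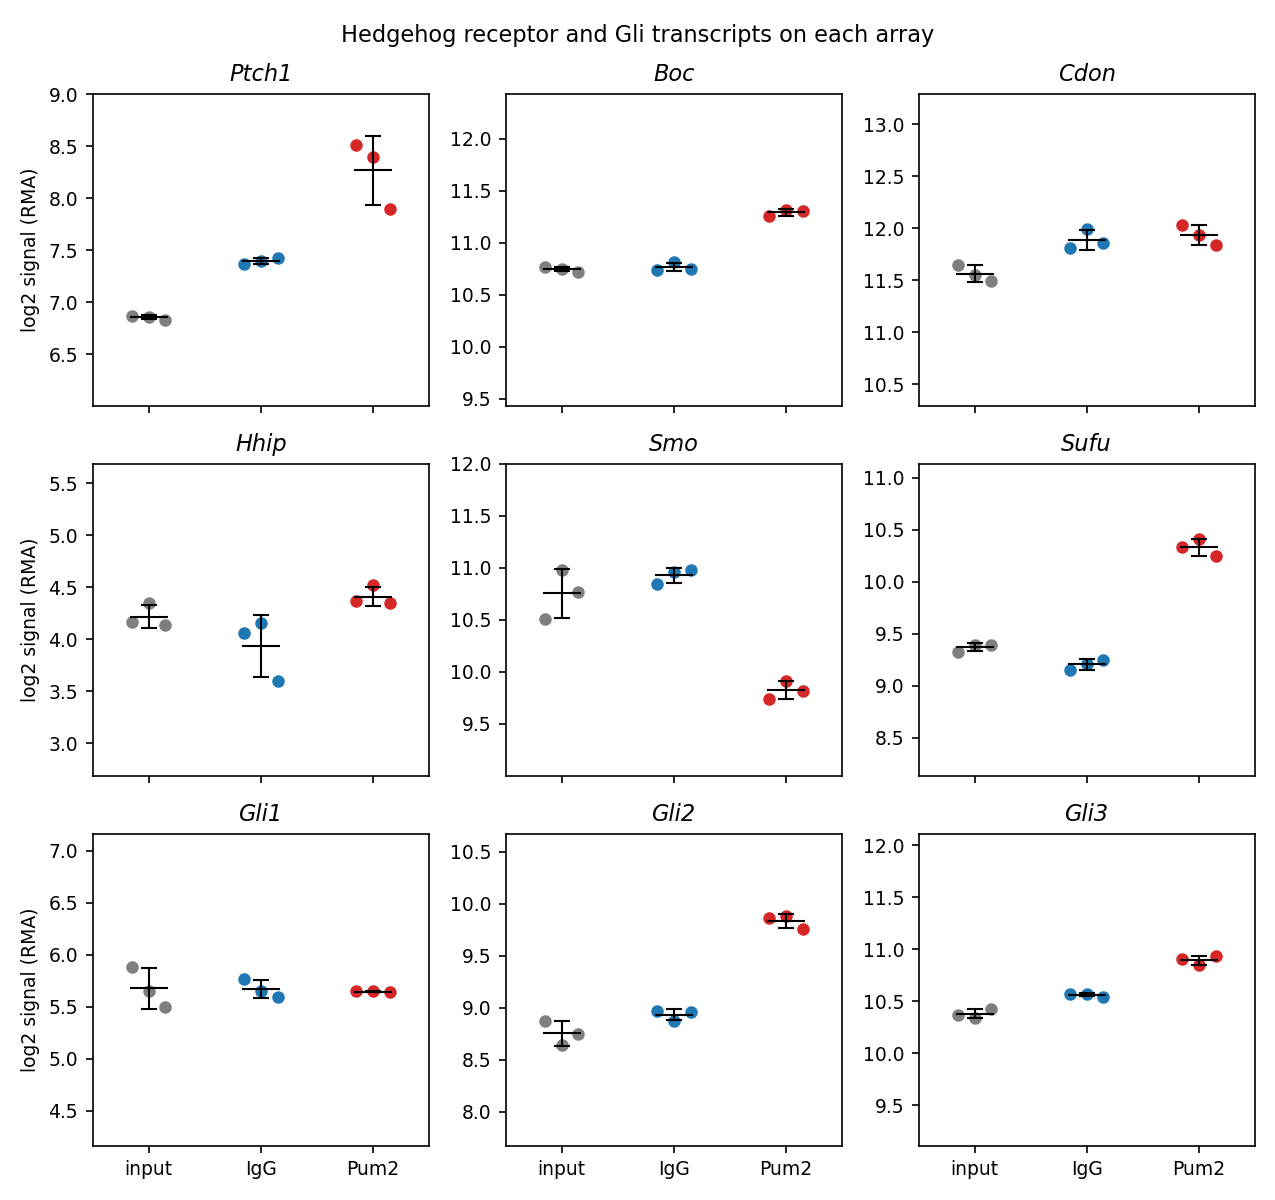
Log2 signal (vertical axis, RMA) of each gene on each array, with 1 point per array and 3 arrays in each of the input, IgG and Pum2 groups; the horizontal mark is the group mean and the bar its SD, and every panel spans 3 log2 units. The Pum2 points of Ptch1, Boc, Sufu, Gli2 and Gli3 lie above all control points, those of Smo lie below all control points, and those of Gli1 lie among them.

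Ptch1, the receptor that restrains Smo and itself a classic Hedgehog target gene, gave log2 signals of 6.87, 6.86 and 6.84 in the input arrays, 7.37, 7.40 and 7.43 in the IgG arrays and 8.52, 8.40 and 7.90 in the Pum2 arrays. The groups did not overlap in any of the comparisons, and the third Pum2 array was the lowest of its group. The difference was 0.87 ± 0.14 over IgG (± SE, 3 against 3 arrays, limma adjusted p = 8.18e-04), a 1.83-fold rise, and 1.41 ± 0.14 over input (adjusted p = 2.55e-05). The latter was the 8th largest among 22180 genes. Part of the excess over input was also present in the IgG precipitate, which exceeded input by 0.54 ± 0.14 (adjusted p = 0.0194). That last call ended without input replicate 2 or 3 or IgG replicate 2 or 3, with differences of 0.55, 0.53, 0.54 and 0.53.

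Boc and Cdon encode related membrane co-receptors that bind Shh and help Ptch1 to receive it. Boc stood at 10.76, 10.75 and 10.72 in input, 10.74, 10.81 and 10.75 in IgG and 11.25, 11.31 and 11.30 in Pum2. The 2 control groups overlapped and every Pum2 array was above both. Its rise was 0.52 ± 0.07 above IgG and 0.54 ± 0.07 above input (n = 3 per group, limma adjusted p = 2.06e-04 and 1.06e-04), and IgG over input was 0.02 ± 0.07 (adjusted p = 0.864). Cdon followed another course, with 11.65, 11.55 and 11.49 in input, 11.81, 11.99 and 11.86 in IgG and 12.03, 11.94 and 11.84 in Pum2. Both precipitates lay above all input arrays and overlapped each other. Cdon exceeded input by 0.37 ± 0.08 in Pum2 and 0.32 ± 0.08 in IgG (n = 3 per group, limma adjusted p = 0.0058 and 0.0232). The call in IgG ended without input replicate 2 or 3 or IgG replicate 2 or 3, at 0.32, 0.29, 0.27 and 0.34. Pum2 over IgG was 0.05 with a 95% interval of -0.14 to 0.23 (adjusted p = 0.734), and -0.05 with the arrays centred on the brighter genes.

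Hhip encodes a membrane decoy that binds Hedgehog ligands. Its signals were low, with only 17.9% of genes having a lower mean over the arrays, so its differences are less certain. They were 4.17, 4.35 and 4.14 in input, 4.06, 4.16 and 3.60 in IgG and 4.36, 4.52 and 4.35 in Pum2. Every Pum2 array was above the IgG arrays, the third IgG array was the lowest of all, and input overlapped with Pum2. Hhip rose by 0.47 ± 0.14 over IgG (n = 3 per group, limma adjusted p = 0.0242), a call that ended without Pum2 replicate 1 (0.50) or 2 (0.42) and with arrays centred on the brighter genes (0.38). Over input the difference was 0.19, with a 95% interval of -0.11 to 0.50 (adjusted p = 0.328).

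Smo, the membrane protein that carries the signal past Ptch1, gave 10.51, 10.98 and 10.77 in input, 10.85, 10.96 and 10.98 in IgG and 9.74, 9.92 and 9.82 in Pum2. All Pum2 arrays lay below all control arrays, and the 2 control groups overlapped. Smo fell by 1.10 ± 0.11 against IgG, to 2.15-fold lower, and by 0.93 ± 0.11 against input (n = 3 per group, limma adjusted p = 6.66e-05 and 1.24e-04). Only 1.36% of genes had a more negative difference against IgG and 3.53% against input. IgG over input was 0.18 ± 0.11 (adjusted p = 0.35).

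Sufu, which holds Gli proteins in the cytoplasm, gave 9.33, 9.39 and 9.39 in input, 9.15, 9.21 and 9.25 in IgG and 10.33, 10.41 and 10.25 in Pum2. Every Pum2 array was above every control array, and the IgG arrays were all below the input arrays (difference -0.17, adjusted p = 0.155). Sufu exceeded IgG by 1.13 ± 0.07, or 2.18-fold, and input by 0.96 ± 0.07 (n = 3 per group, limma adjusted p = 5.54e-06 and 5.77e-06). Against IgG it ranked 70th of 22180 genes. The other row of Sufu, with a lower signal, stood at 5.99, 5.55 and 5.76 in input, 5.78, 5.56 and 5.69 in IgG and 6.56, 6.53 and 6.51 in Pum2. Its groups were ordered alike, with differences of 0.86 ± 0.12 over IgG and 0.77 ± 0.12 over input (limma over all rows, adjusted p = 8.12e-04 and 0.00115).

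The 3 Gli genes, which encode the transcription factors at the end of the pathway, differed among themselves. Gli2, the main activator in many tissues, gave 8.88, 8.64 and 8.75 in input, 8.97, 8.87 and 8.96 in IgG and 9.86, 9.88 and 9.76 in Pum2. The Pum2 arrays were above all others. Gli2 exceeded IgG by 0.90 ± 0.08 and input by 1.08 ± 0.08 (n = 3 per group, limma adjusted p = 3.51e-05 and 6.12e-06), a 1.86-fold and a 2.12-fold increase.

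Gli3, the main repressor of the pathway in the cortex, gave 10.37, 10.34 and 10.43 in input, 10.57, 10.57 and 10.55 in IgG and 10.90, 10.85 and 10.94 in Pum2. No groups overlapped, with IgG between input and Pum2. The rise was smaller than that of Gli2, 0.33 ± 0.07 over IgG and 0.52 ± 0.07 over input (n = 3 per group, limma adjusted p = 0.0034 and 1.68e-04). IgG over input was 0.18 ± 0.07 (adjusted p = 0.0899), and it passed the threshold among genes at or above the median level (adjusted p = 0.0387), with an intensity trend and robust prior (0.0262) and with quantile normalization run again (0.0365).

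Gli1, an activator whose transcription depends on Hedgehog signalling, gave 5.89, 5.65 and 5.50 in input, 5.76, 5.65 and 5.60 in IgG and 5.65, 5.65 and 5.64 in Pum2. The groups overlapped throughout. The same value, 5.65, was deposited for 4 of the 9 arrays, identical to the last digit, so the row held only 6 distinct values and the small spread in Pum2 is not a measure of precision. Pum2 over IgG was -0.02 with a 95% interval of -0.25 to 0.20, and Pum2 over input was -0.03 with an interval of -0.25 to 0.19 (n = 3 per group, limma adjusted p = 0.896 and 0.851). Gli1 and Hhip were the 2 of 9 genes with a mean below that of the median gene.

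**Figure D2:**
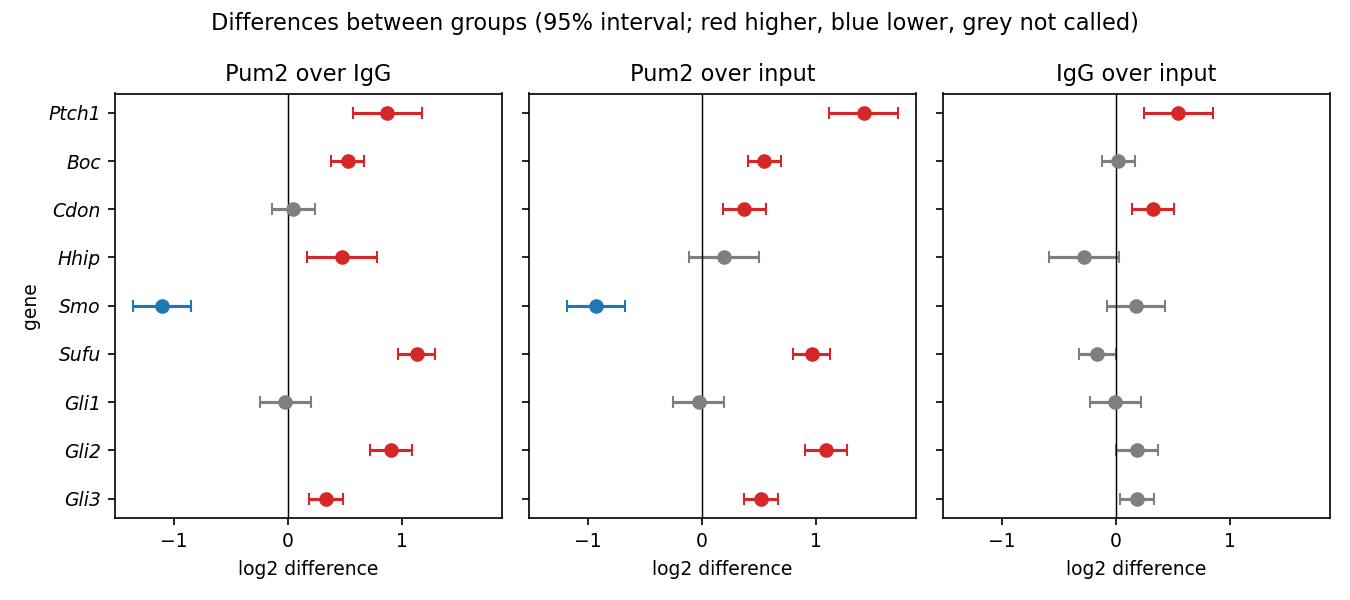
Log2 difference (horizontal axis) of each gene in the 3 comparisons, each from 3 against 3 arrays; bars are 95% intervals from limma, red points were called higher, blue points lower, and grey points did not pass an adjusted p of 0.05. Smo is the only blue point in either Pum2 comparison, at -1.10 and -0.93, and Sufu at 1.13 and Ptch1 at 1.41 are the rightmost points.

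Some of these genes also differed between the IgG precipitate and input, as did a share of all genes. Ptch1 and Cdon were the 2 of 9 called higher, beside 8.25% of all genes, and 0 of 9 were called lower, beside 9.72%. At an unadjusted p under 0.05 in limma, Gli3 would also count as higher and Sufu as the 1 lower. The IgG arrays lay wholly above the input arrays for 3 genes (Ptch1, Gli3 and Cdon) and wholly below for 1 (Sufu), beside 15.9% and 16.2% of all genes. The count of 2 became 0 without input replicate 2 or 3 or IgG replicate 2 or 3.

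**Figure D3:**
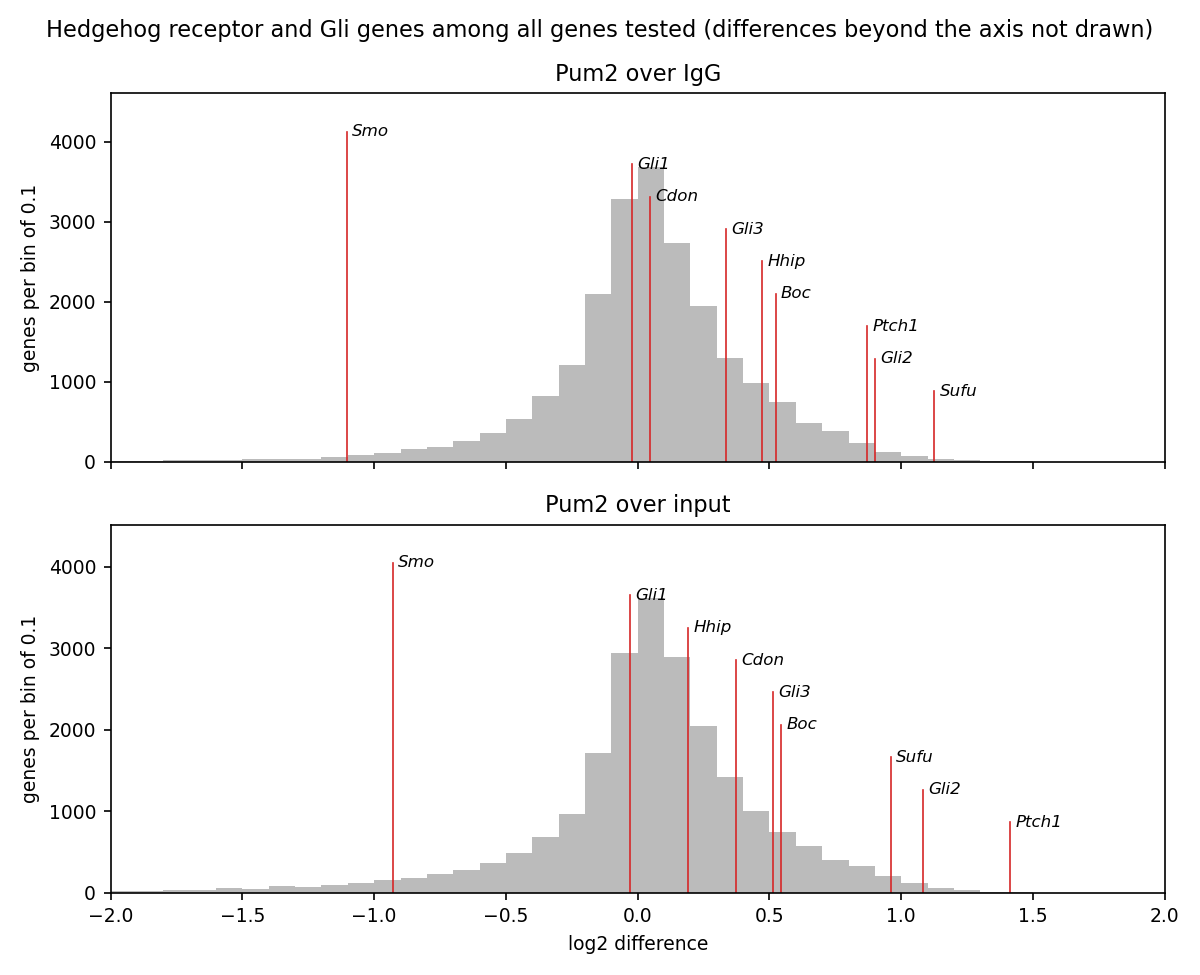
Number of genes per bin of 0.1 (vertical axis) by log2 difference (horizontal axis) over the 22180 genes, for Pum2 over IgG and Pum2 over input; red lines mark the Hedgehog genes and their height has no meaning. Sufu, Gli2 and Ptch1 lie in the right tail, Smo in the left tail, and Gli1 near the centre of both distributions.

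Unequal change was also examined within arrays, where the scaling of an array cancels. The log2 difference between 2 genes on the same array was compared between groups by an exact two-sided permutation test. With 3 against 3 arrays this gives no p below 0.1, so none of the 12 tests could pass 0.05, and the levels of different probes are not themselves comparable. The difference of Ptch1 minus Smo was larger in Pum2 than in IgG by 1.97 and than in input by 2.34, and no arrays overlapped (exact p = 0.1 each, 0.133 adjusted over the 12 tests). Ptch1 itself changed by 0.87 and 1.41 and Smo by -1.10 and -0.93, each without overlap. The separation of their difference therefore follows from the single genes and adds nothing to them. In IgG the difference of Ptch1 minus Smo was also larger than in input, by 0.37, without overlap (exact p = 0.1, adjusted 0.133). Gli3 minus Gli2 was smaller in Pum2 than in IgG by 0.57 and than in input by 0.57, again with no overlap (exact p = 0.1, adjusted 0.133). Between IgG and input it differed by less than 0.01 in mean, and the arrays overlapped (exact p = 1). Gli1 minus Gli2 was lower in Pum2, by 0.92 against IgG and 1.11 against input (exact p = 0.1, adjusted 0.133). Gli1 itself changed by -0.02 and -0.03 and Gli2 by 0.90 and 1.08, so this shift is nearly that of Gli2 alone. The Gli1 row had a low signal and the same value on 4 arrays. Boc minus Cdon was higher in Pum2 than in IgG by 0.48 (exact p = 0.1, adjusted 0.133), but only 0.17 higher than in input, where arrays overlapped (exact p = 0.2, adjusted 0.24). In IgG it was lower than in input by 0.30 (exact p = 0.1, adjusted 0.133).

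**Figure D4:**
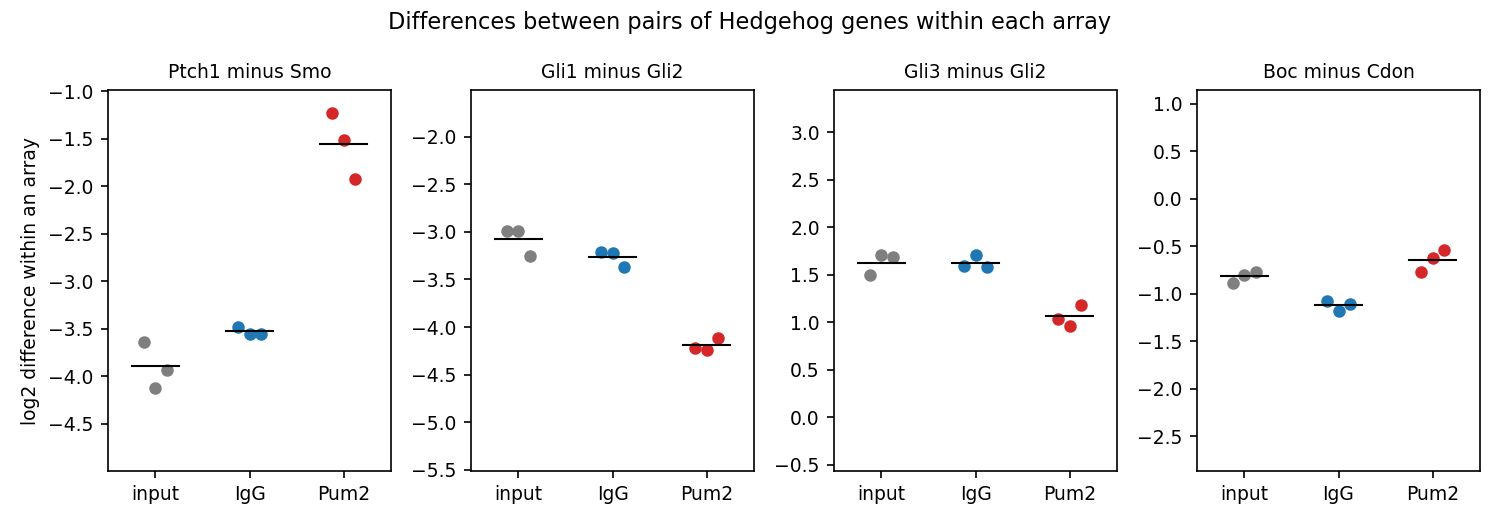
Log2 difference between 2 genes on the same array (vertical axis, 4 log2 units per panel) by group, with 1 point per array and a line at the mean of 3. Only shifts between groups can be read, and the Ptch1 minus Smo points of Pum2 stand 1.97 above those of IgG on average.

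The other genes of the pathway moved less uniformly. Of 48 measured from 5 lists, 14 were higher and 6 lower in Pum2 than in IgG, beside 19.4% and 11.4% of all genes. Against input 19 were higher and 3 lower, beside 21.6% and 13.1%, and the medians were 0.14 and 0.19. Pooled over the 48, the shares of higher genes lay nearer to the background than those of the receptors and Gli factors, a difference that was not tested. The list of ligand release and co-receptors did not share this, with 5 of 9 higher against IgG and 6 of 9 against input. For the receptors and Gli factors the count was 6 of 9 in each. Among genes at or above the median level alone, 39.2% were higher against IgG and 41.1% against input. In IgG 11 of the 48 were higher and 3 lower than in input, beside 8.25% and 9.72% of all genes. At or above the median level these shares were 18.8% and 22.8%. Without input replicate 3 or IgG replicate 3 the count of 11 became 7, and without input replicate 1, IgG replicate 1 or Pum2 replicate 1 the count of 3 became 1. The count of 3 lower in Pum2 than in input became 5 with quantile normalization run again or with centring on the brighter genes.

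Of the 3 ligand genes, 0 passed limma's test in any comparison, and at an unadjusted p under 0.05 the count was 1, Shh against input (0.43, adjusted p = 0.0897). Shh was 0.33 above IgG (95% interval -0.07 to 0.73, adjusted p = 0.204), Ihh 0.25 (adjusted p = 0.128) and Dhh 0.21 (adjusted p = 0.242). Among genes for ligand release and co-receptors, 5 of 9 rose and 1 fell against IgG (median 0.28), beside 19.4% and 11.4% of all genes. Against input 6 rose and 1 fell (median 0.34), beside 21.6% and 13.1%. Gas1, a membrane-anchored co-receptor for Shh, rose by 0.84 ± 0.11 from IgG and by 0.89 ± 0.11 from input (limma adjusted p = 2.84e-04 and 1.32e-04). Its arrays read 6.89, 6.69 and 6.65 in input, 6.64, 6.90 and 6.83 in IgG and 7.55, 7.82 and 7.51 in Pum2, so Pum2 stood above both controls. Gpc3, a glypican of the cell surface that binds Hedgehog ligands, rose by 0.83 ± 0.12 and 1.07 ± 0.12 (adjusted p = 4.07e-04 and 5.39e-05). Scube1, a secreted protein related to the Hedgehog release factor Scube2, rose by 0.46 ± 0.08 and 0.81 ± 0.08, and Disp2, a relative of the ligand-releasing protein Disp1, by 0.38 ± 0.08 and 0.70 ± 0.08. The last 2 were also higher in IgG than in input, by 0.34 and 0.33. For Scube1 that call ended without input replicate 2 (0.32), and for Disp2 with only the IgG and input arrays in the fit (0.33) and without input replicate 3 (0.25), IgG replicate 1 (0.31) or IgG replicate 3 (0.31).

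Of 14 genes of the primary cilium and of Smo relay, 4 rose and 2 fell against IgG (19.4% and 11.4% of all genes), and 4 rose and 1 fell against input (21.6% and 13.1%). Their median differences, 0.04 and 0.07, were those of all genes to 2 decimals, so the counts are no result about the list. Kif7, a ciliary kinesin that regulates Gli proteins, rose by 0.29 ± 0.08 from IgG and by 0.56 ± 0.08 from input (limma adjusted p = 0.0193 and 3.55e-04). IgG also exceeded input, by 0.27 ± 0.08 (adjusted p = 0.0460), a call that ended in 8 of the 9 runs that left out an array, at 0.25 to 0.29, all but the one without Pum2 replicate 3. The call of Pum2 against IgG ended with centring on the brighter genes (0.20), with the mean of all its rows (0.20), and without IgG replicate 1 (0.27) or Pum2 replicate 3 (0.22). Ift88, a component of the transport particle that builds cilia, fell by 0.24 ± 0.07 against IgG and by 0.41 ± 0.07 against input (adjusted p = 0.0264 and 0.00114). The former call ended without IgG replicate 1 (-0.24) or 2 (-0.23) or Pum2 replicate 2 (-0.22) or 3 (-0.22). Ift172 of the same particle rose over input by 0.57 ± 0.10, while IgG exceeded input by 0.55 ± 0.10 and Pum2 over IgG was 0.02. Arrb2, an arrestin that can bind Smo, rose by 0.47 ± 0.08 over IgG, where IgG was lower than input by the same amount (-0.47 ± 0.08), and Pum2 and input had equal means.

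Among 13 genes of Gli phosphorylation and turnover, 3 rose and 2 fell against IgG (median 0.04), near the 19.4% and 11.4% of all genes. Against input 7 rose and 1 fell (median 0.27), beside 21.6% and 13.1%. Among genes at or above the median level, where the genes of this list lie, the shares against input were 41.1% and 24.3%. In IgG 4 of the 13 were higher and 1 lower than in input (median 0.17), beside 8.25% and 9.72% of all genes. Spop, the substrate adaptor of a ubiquitin ligase that marks Gli2 and Gli3 for destruction, had the largest change of all pathway genes read here. Its arrays read 10.54, 10.61 and 10.55 in input, 11.38, 11.49 and 11.38 in IgG and 8.83, 8.98 and 8.76 in Pum2. The IgG arrays stood above input and the Pum2 arrays far below it. Spop fell by 2.55 ± 0.08 against IgG, to 5.87-fold lower, and by 1.70 ± 0.08 against input, and IgG exceeded input by 0.85 ± 0.08 (limma adjusted p = 9.88e-08, 3.31e-07 and 1.75e-04). Prkacb, a catalytic subunit of protein kinase A, which phosphorylates Gli proteins, exceeded IgG by 0.47 ± 0.11 and input by 0.65 ± 0.11 (adjusted p = 0.00737 and 8.57e-04). Stk36, the mouse relative of the fly kinase Fused, rose by 0.33 ± 0.09 and 0.49 ± 0.09. Its call against IgG ended with quantile normalization run again (0.23), with centring on the brighter genes (0.23) and without Pum2 replicate 1 (0.32) or 2 (0.25). Gsk3b, another kinase acting on Gli proteins, was higher than input with Pum2 (0.62 ± 0.08) and with IgG (0.67 ± 0.08), and Pum2 over IgG was -0.05 (adjusted p = 0.719).

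Of 9 genes reported elsewhere as Hedgehog targets, 2 rose and 1 fell against IgG (median 0.08), and 2 rose and 0 fell against input (median 0.12). These shares lay near those of all genes, 19.4% and 11.4% against IgG and 21.6% and 13.1% against input, and are no result about the list. Mycn, a proliferation factor of neural precursors, exceeded IgG by 0.53 ± 0.07 and input by 0.74 ± 0.07 (limma adjusted p = 2.25e-04 and 1.77e-05). For Mycn, IgG over input was 0.21 ± 0.07 (adjusted p = 0.0544). That difference passed the threshold among genes at or above the median level (adjusted p = 0.0208) and with an intensity trend and robust prior (0.0380). It also passed with quantile normalization run again (0.0274) and with centring on the brighter genes (0.0410). Olig2, a bHLH factor of ventral precursors and oligodendrocytes, rose by 0.73 ± 0.13 and 0.57 ± 0.13 (adjusted p = 0.00206 and 0.00674). Ccnd2, a G1 cyclin gene, fell against IgG by 0.36 ± 0.07 (adjusted p = 0.00206), a call that ended with quantile normalization run again (-0.09). It was higher in IgG than in input by 0.48 ± 0.07, and Pum2 over input was 0.12 (adjusted p = 0.211). With that normalization Pum2 over input was 0.41 and passed the threshold (adjusted p = 8.42e-04), as did 0.12 with an intensity trend and robust prior (adjusted p = 0.0408).

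**Figure D5:**
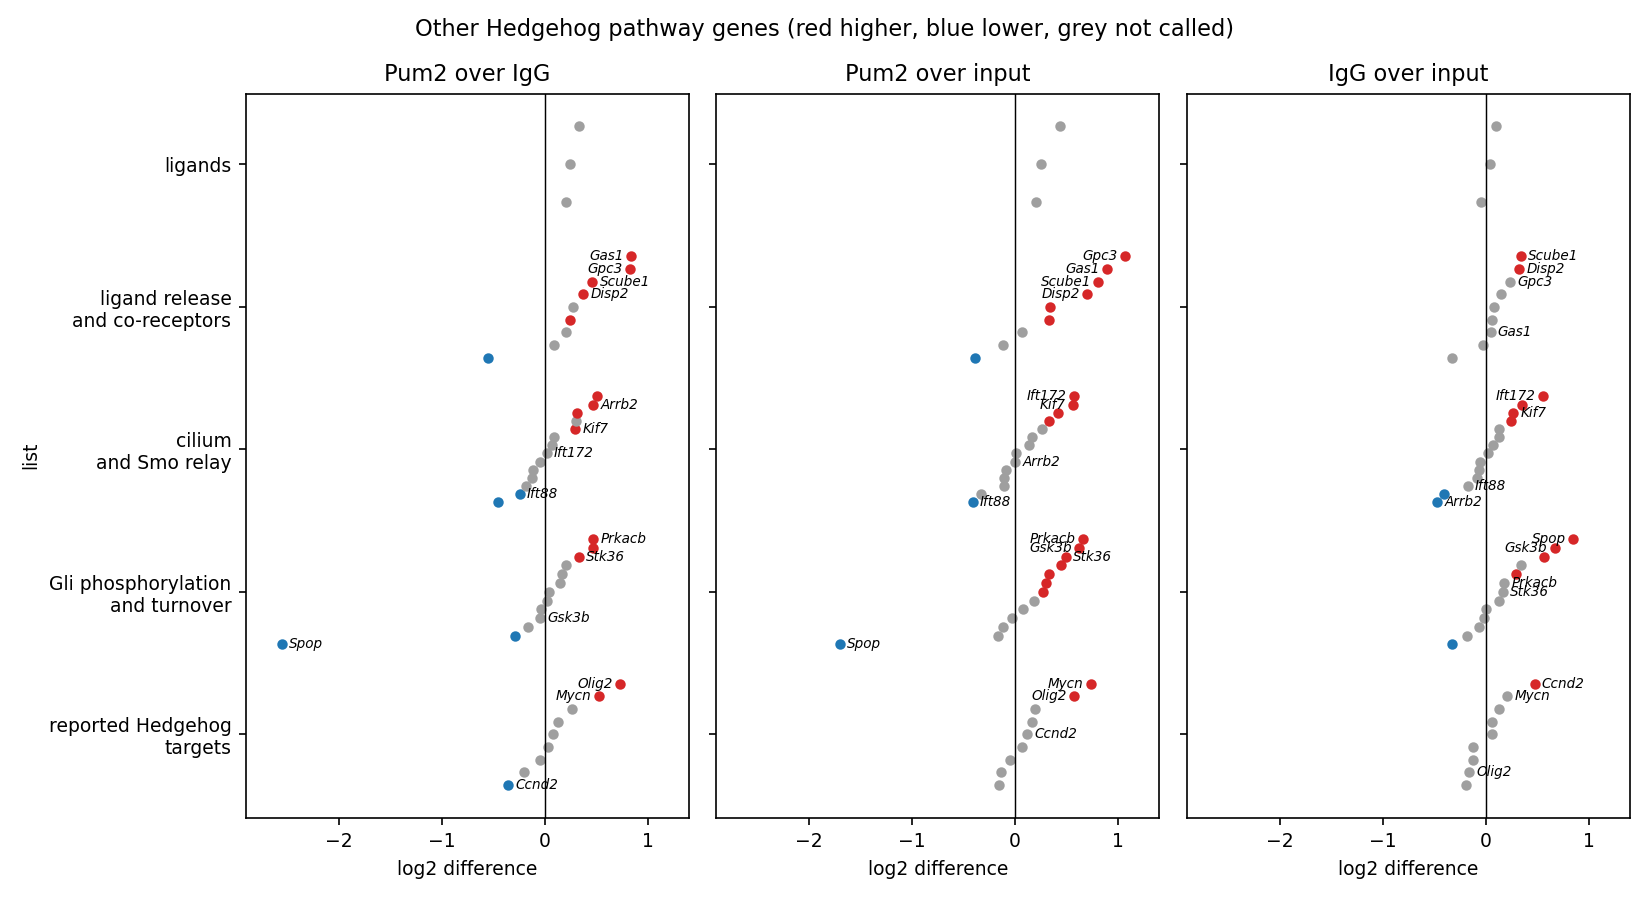
Log2 difference (horizontal axis) of each other pathway gene, 1 point per gene, in 5 lists (vertical axis) and 3 comparisons. Red points were called higher, blue points lower, and grey points did not pass. Labelled genes are those named in the text from their lists, except the ligand genes, which carry no label. Spop lies at -2.55 in Pum2 over IgG, at -1.70 in Pum2 over input and at 0.85 in IgG over input.

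The genes most similar to Ptch1, Smo and Gli3 over the 9 arrays were found by Euclidean distance between values centred on each gene's own mean, among 11089 other genes at or above the median level. Genes chosen in this way have similar group differences by selection, so the differences below are only a description. Nearest to Ptch1 were Bcl2l11, which encodes a promoter of apoptosis (distance 0.35), Tspoap1 (0.39) and Rabgef1 (0.40), with differences over input of 1.20, 1.20 and 1.23. Nearest to Smo were Gm3696 (0.29), Nkain1 (0.32) and Rnf10 (0.37), with differences against IgG of -0.99, -1.04 and -0.95. Nearest to Gli3 were Eps15l1 (0.09), the transcriptional corepressor gene Nab2 (0.10) and Pprc1 (0.13), with differences over IgG of 0.33, 0.36 and 0.34. For Nab2 the mean of all its rows gave 0.16 and did not pass (adjusted p = 0.244).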

How the data were processed

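RNA of 9 samples was amplified, labelled and hybridised, per the labels' protocols, to the Mouse Gene 2.0 ST array. The authors deposited log2 signals made by RMA in Affymetrix Expression Console, per the submitters' processing notes. RMA corrects background, normalizes arrays and summarises probes, so differences are relative to the bulk of each array, and few probes per row can give repeated values. The sources used here give no version, genome build or scan batch, and the table carries no detection calls.

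Names came from GEO's platform annotation. Of 41345 rows, 23521 carried 1 symbol, 1814 several and 16010 none, and each of the 22180 genes was read from its row with the highest mean. Groups followed the sample titles. One limma fit (limma 3.58.1, R 4.3.3, default prior, 6 residual degrees of freedom) covered all 9 arrays without a replicate block. P-values were adjusted by Benjamini-Hochberg over the 22180 genes and called below 0.05, with no filter on low values. They measure the spread between arrays labelled as biological replicates. The fit was tested on simulated data.

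The 9 genes, the 5 pathway lists and the marker lists were chosen with earlier results of these data known. Named were the 9 genes, up to 4 called genes per pathway list with the largest moderated t in a Pum2 comparison, and the 3 most similar genes each for Ptch1, Smo and Gli3. The ligand genes are named because their list had none called. Of 52 pathway genes listed, 48 were analysed here. Pumilio binding elements in the transcripts were not analysed here. Alternatives were 8 other settings and leaving out each array in turn.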

Additional observations from a re-analysis of the deposited data

How the results depend on the processing

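For the 9 genes, the counts called in both Pum2 comparisons stayed within 1.5 times under every setting run. Same-numbered arrays of different groups deviated from their group means with correlations of 0.00154 to 0.135, and differently numbered arrays with -0.130 to 0.0407. Every array except IgG replicate 1 correlated best with one of its own number, a hint from the data and not the design. The labels call the inputs corresponding but do not tie numbers to a shared lysate, and not every pair exceeded 0.1, so the block is given only as an alternative. With the replicate number as a block (replicate block) they were 6 higher and 1 lower against IgG and 6 and 1 against input, and the block changed the call of Kif7 in IgG over input (0.27, adjusted p = 0.0588; it ended also with the mean of all rows of a gene, 0.18, and with all rows tested, 0.27) and no other call of a named gene. Leaving out each array in turn gave 5 to 6 higher and 1 lower against IgG, and 6 and 1 against input. In IgG over input that range was 0 to 2 higher for the 9 genes, and 7 to 11 higher and 1 to 3 lower for the other pathway genes. The count of other pathway genes lower in IgG than in input was 3, and 1 with only the 2 groups compared in the fit or with all rows of the table tested. Lower than input with Pum2 were 3, and 5 with quantile normalization run again or with centring on the brighter genes. Signs turned only for small differences that had not been called. With centring on the brighter genes these were Cdon (-0.0475) and Ift172 (-0.0753) in Pum2 over IgG, Arrb2 in Pum2 over input (-0.0704) and Gli1 in IgG over input (0.0168). With quantile normalization they were Ift172 (-0.0447) and Arrb2 (-0.0804). With arrays left out, Gli1 ranged from -0.0600 to 0.0238 over IgG, -0.121 to 0.0738 over input and -0.0979 to 0.0971 in IgG over input, Ift172 from -0.0810 to 0.113 and Gsk3b from -0.0797 to 0.00341 in Pum2 over IgG, Arrb2 from -0.0406 to 0.0406 in Pum2 over input, and Boc from -0.00148 to 0.0363 and Gas1 from -0.00582 to 0.124 in IgG over input. Gli3 minus Gli2 between IgG and input ranged from -0.0668 to 0.0382. The causes were not tested. Low signal limits Hhip and Gli1.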
